A study of Mus musculus with 4 samples.

Results

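The 10 macrophage and monocyte genes described here are Adgre1, Cd68, Csf1r, Csf1, Mrc1, Cd163, Ly6c2, Lyz2, Fcgr1 and Mertk. They were taken from the deposited gene count table by gene name, and all 10 were found among its 56748 genes. The table holds RNA-seq counts from the small intestine (SI) of mice collected 1 day post 12 Gy total body irradiation (TBI) from a Cs-137 source. The 2 libraries labelled WT came from mice with intact p53, and the 2 libraries labelled p53-/- came from mice that lack p53 in every tissue. Both stocks were from the Jackson Laboratory, animals in the study were 8 to 12 weeks of age, and every library analysed here was from an irradiated animal. The columns number the libraries 7 and 8 (WT) and 9 and 10 (p53-/-), which are names only. The RNA came from whole tissue, so fewer cells of a type and less RNA per cell cannot be told apart.

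Intestinal macrophages lie in the lamina propria, around the crypts, in the muscle layer and in the Peyer's patches. Many of them are replaced throughout life by blood monocytes that carry the surface protein Ly6C and that lose it as they mature in the tissue. The growth factor CSF1 acts on its receptor CSF1R to keep macrophages and many monocytes alive, and mature intestinal macrophages take up dying cells and microbes through receptors such as MERTK, the mannose receptor MRC1 and Fc receptors. No member is found in macrophages alone. Mertk, Csf1 and Lyz2 are also known in other cell types, and Ly6C proteins also lie on endothelial and lymphoid cells.

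Lyz2 and Ly6c2 each have a close neighbor on the same chromosome, and reads from an identical stretch could be assigned to either copy. Lyz2, the lysozyme of macrophages, lies at chr10:117277331-117282321 on the minus strand of GRCm38 (GENCODE M21), and Lyz1, the lysozyme of Paneth cells, lies at chr10:117287797-117292868 on the same strand. Their coding sequences, 444 bases each, differed at 22 bases (95.05% identity), and the longest identical run was 118 bases. Coding bases 7 to 156, counted from the first base of the start codon, held 15 of those differences. They are shown because they are the stretch that best tells the copies apart, with the differing bases in capitals.
Lyz2: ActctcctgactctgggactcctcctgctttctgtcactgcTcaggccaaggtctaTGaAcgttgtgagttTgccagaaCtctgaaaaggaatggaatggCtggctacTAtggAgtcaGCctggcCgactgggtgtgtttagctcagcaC
Lyz1: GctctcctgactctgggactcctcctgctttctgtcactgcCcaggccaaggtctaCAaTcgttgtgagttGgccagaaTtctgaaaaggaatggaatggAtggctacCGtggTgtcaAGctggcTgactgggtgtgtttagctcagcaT
Ly6c2, a marker of inflammatory monocytes, lies at chr15:75108158-75111970 on the minus strand, and Ly6c1, which is prominent on endothelial cells, lies at chr15:75044018-75048830 on the same strand. Their 393 coding bases differed at 9 bases (97.71% identity), with an identical run of 188 bases. Of those differences, 6 lay in coding bases 1 to 150, shown with the differing bases in capitals.
Ly6c2: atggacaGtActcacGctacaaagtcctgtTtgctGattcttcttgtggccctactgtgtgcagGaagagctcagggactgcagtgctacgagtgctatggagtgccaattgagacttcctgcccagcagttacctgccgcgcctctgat
Ly6c1: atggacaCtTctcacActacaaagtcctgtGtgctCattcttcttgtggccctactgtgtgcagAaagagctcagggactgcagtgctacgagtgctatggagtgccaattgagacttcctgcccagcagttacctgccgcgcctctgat
Of all stretches of 100 bases in the annotated transcripts, 1.972% in Lyz2 and 15.77% in Ly6c2 also occurred in another gene. Of the Csf1r stretches, 16.82% were shared with the overlapping gene Hmgxb3. The other 7 members shared none of that length.

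All 10 members passed the filter on low counts and entered edgeR's quasi-likelihood test. Levels are given as CPM, a gene's counts relative to a library total that was scaled by TMM. Differences are log2 fold changes of p53-/- over WT with their standard errors (SE), and p-values carry a Benjamini-Hochberg adjustment over the 16094 genes tested. With 2 libraries per genotype and no statement in the labels that they came from separate animals, p-values refer to the spread between these libraries. The quasi-likelihood test took each gene's spread in part from the trend over all genes (3.45 prior degrees of freedom, of a median total of 5.45).

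Of the 10 members, 0 passed an adjusted p of 0.05 in edgeR's quasi-likelihood test. In the same test 0.298% of all genes were called higher and 0.193% lower in p53-/- SI. At an unadjusted p under 0.05 there were 4 members, Cd68, Mrc1, Ly6c2 and Lyz2, all with positive fold changes, and 18.0% of all genes reached that level in either direction. DESeq2 called 1 member (Ly6c2) and 9.16% of all genes, and edgeR's likelihood ratio test called 1 member (Lyz2) and 8.05% of all genes. The fold change was positive for 9 members and negative for Mertk, while 49.3% of all genes had a positive value. It was above 1 for 4 members, Cd68, Csf1r, Ly6c2 and Lyz2, and for 11.4% of all genes. The members' median log2 fold change was 0.85, beside -0.0084 over all genes tested. Both p53-/- libraries lay above both WT libraries for 5 members (Cd68, Csf1r, Mrc1, Ly6c2 and Lyz2), a pattern that 26.4% of all genes showed.

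**Figure D1:**
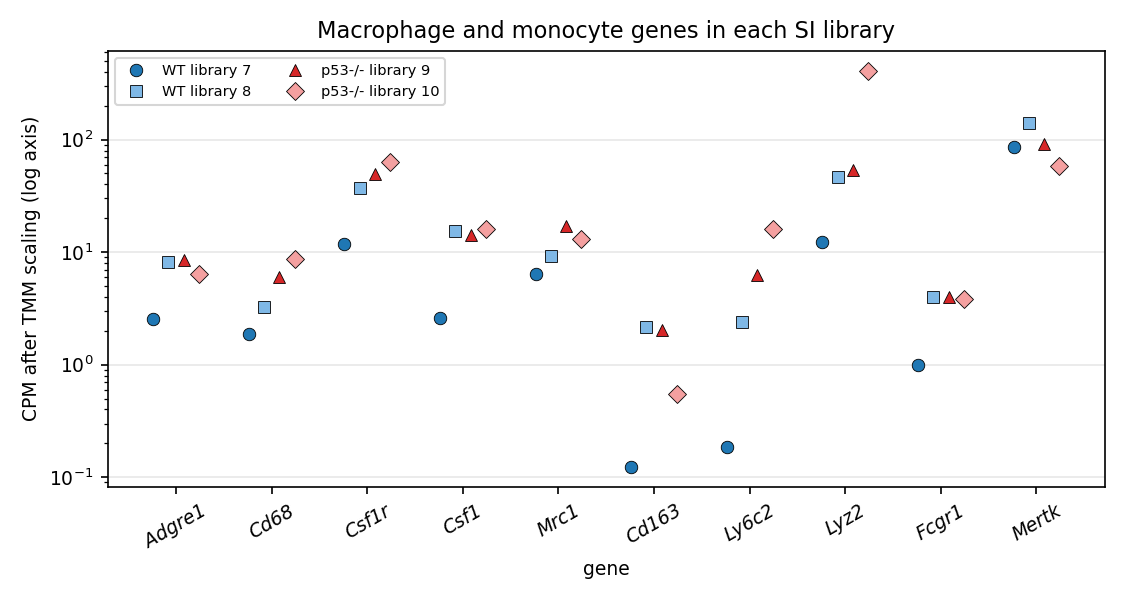
CPM of the 10 macrophage and monocyte genes in each of the 4 SI libraries, on a log axis. Library 7 is the lowest of the 4 for every member except Mertk, and Lyz2 in library 10 (411 CPM) stands far above its other 3 values.

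The ligand and its receptor differed in how their libraries lay. Csf1, the growth factor, was at 2.60 CPM in WT library 7 and 15.4 CPM in WT library 8, and at 14.1 and 16.0 CPM in p53-/- libraries 9 and 10. Only library 7 stood apart, and the genotypes overlapped. Csf1 had a log2 fold change of 0.74 (SE 0.768, adjusted p = 0.686 in edgeR's quasi-likelihood test), with an interval (95%) from -1.18 to 2.67. Csf1r, its receptor and a defining gene of the macrophage lineage, was at 11.9 and 36.9 CPM in WT and at 49.3 and 63.4 CPM in p53-/- SI. Both p53-/- libraries were above both WT libraries, while the WT values themselves were far apart. The log2 fold change was 1.21 (SE 0.516, adjusted p = 0.306 from the same test), with an interval from -0.086 to 2.50. Hmgxb3, which shares sequence with Csf1r, had a log2 fold change of -0.067.

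Adgre1 encodes F4/80, the classical surface marker of mouse macrophages. It was at 2.54 and 8.24 CPM in WT and at 8.50 and 6.42 CPM in p53-/- SI. The genotypes overlapped, with a log2 fold change of 0.47 (SE 0.606, adjusted p = 0.753 from the quasi-likelihood test). Cd68, a glycoprotein of the lysosomes and endosomes of phagocytes, was at 1.86 and 3.24 CPM in WT and at 5.96 and 8.70 CPM in p53-/- SI. Both p53-/- values were above both WT values. Its log2 fold change of 1.52 (SE 0.469, unadjusted p = 0.0202, adjusted p = 0.195 from the same test) had an interval from 0.35 to 2.70.

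The monocyte marker Ly6c2 had the largest fold change of the 10 members when all 4 libraries were used, while Lyz2 was ahead without WT library 7 (2.33 against 2.22) or without p53-/- library 9 (3.81 against 3.64). It had 3 and 37 counts in WT and 142 and 326 counts in p53-/- SI, which corresponds to 0.186, 2.40, 6.22 and 16.2 CPM. The genotypes did not overlap, but library 7 was at the floor of 3 counts. Its log2 fold change was 3.12 (SE 1.10, unadjusted p = 0.0334, adjusted p = 0.237 in edgeR's quasi-likelihood test), with an interval from 0.35 to 5.88. DESeq2 gave an adjusted p of 0.0318 and edgeR's likelihood ratio test one of 0.0725. Its neighbor Ly6c1 was at 3.96, 13.9, 9.25 and 13.5 CPM, with overlapping genotypes and a log2 fold change of 0.35 (adjusted p = 0.824). When the counts of both genes were summed, the log2 fold change was 1.14 (adjusted p = 0.454).

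Lyz2, a lysozyme that degrades bacterial cell walls, was at 12.4 and 46.1 CPM in WT library 7 and library 8, and at 53.2 and 411 CPM in p53-/- library 9 and library 10. Library 9 was close to the higher WT library, and the group mean of p53-/- SI, 232 ± 253 CPM (SD, n = 2), rested on library 10. Lyz2 had a log2 fold change of 2.99 (SE 1.09, adjusted p = 0.247 in edgeR's quasi-likelihood test) and 0.90 without library 10. DESeq2 gave an adjusted p of 0.191 and the likelihood ratio test one of 0.0484. Lyz1 was far more abundant, at 5999, 3929, 6593 and 8140 CPM, and its log2 fold change was 0.57 (adjusted p = 0.542). Lyz2 counts equaled 0.206% and 1.17% of the Lyz1 counts in WT and 0.806% and 5.05% in p53-/- SI, so reads passing from Lyz1 to Lyz2 in a small share could enter the Lyz2 value. How many did was not tested. Of 8 Paneth cell markers, Lyz1 included, 7 were above WT in both p53-/- libraries, as were 26.4% of all genes. The median log2 fold change of the 8 was 0.62, or 0.93 without WT library 7 and 0.38 without WT library 8. Summed with Lyz1, the log2 fold change was 0.61 (adjusted p = 0.524).

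Among the receptors for uptake, Mrc1, the mannose receptor of resident macrophages and also of some endothelial cells, was at 6.44 and 9.21 CPM in WT and at 17.2 and 13.2 CPM in p53-/- SI. The libraries did not overlap, and the WT pair was closer together than for most members. Mrc1 had a log2 fold change of 0.96 (SE 0.326, unadjusted p = 0.0290, adjusted p = 0.225 in edgeR's quasi-likelihood test). Cd163, the receptor for hemoglobin bound to haptoglobin, had 2 and 33 counts in WT and 46 and 11 counts in p53-/- SI. Its libraries were spread widely within both genotypes, and the log2 fold change of 0.19 had an interval from -2.90 to 3.28. Fcgr1, the high-affinity Fc receptor for IgG, was at 0.990 and 4.02 CPM in WT and at 3.99 and 3.83 CPM in p53-/- SI. Library 8 was level with the p53-/- libraries and library 7 lay below all 3, with a log2 fold change of 0.64 (SE 0.705, adjusted p = 0.705).

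Mertk, a receptor tyrosine kinase for the uptake of dying cells, was the member with a negative fold change. It was at 86.4 and 140 CPM in WT and at 91.0 and 58.6 CPM in p53-/- SI. The genotypes overlapped, since library 9 lay between the WT libraries, and the log2 fold change was -0.59 (SE 0.321, adjusted p = 0.407 in edgeR's quasi-likelihood test), with an interval from -1.40 to 0.21. Gas6, which encodes a ligand of MERTK, was at 246 and 282 CPM in WT and at 114 and 94.1 CPM in p53-/- SI. Both p53-/- libraries were below both WT libraries, as for 24.4% of all genes, with a log2 fold change of -1.34 (SE 0.199, adjusted p = 0.0637 from the same test).

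**Figure D2:**
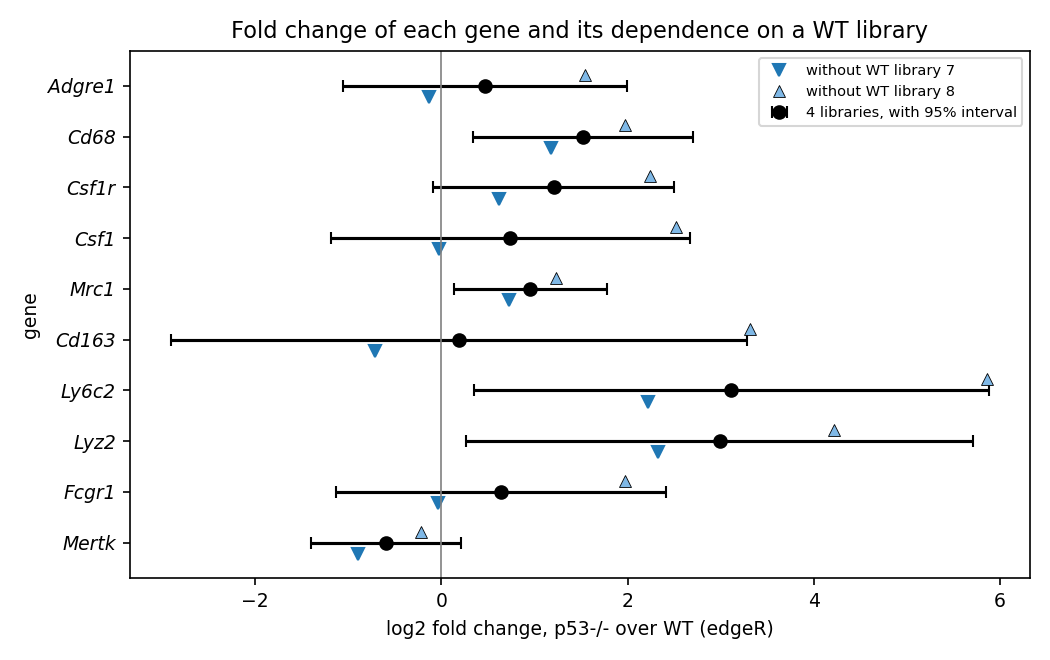
Log2 fold change of each member, p53-/- over WT, with its 95% interval from edgeR's quasi-likelihood fit (black) and the value without WT library 7 or 8 (triangles). The intervals of Cd68, Mrc1, Ly6c2 and Lyz2 lie above 0, and those of the other 6 members include 0.

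The WT libraries differed from each other in these genes. All 10 members were higher in library 8 than in library 7, as were 44.8% of all genes, and 7 of them differed by more than 1 on the log2 scale, as did 12.8% of all genes. The differences ran from 0.52 for Mrc1 to 4.11 for Cd163. Between the p53-/- libraries, 5 members were higher in library 10, as were 51.2% of all genes, and 2 members (Ly6c2 at 1.38 and Lyz2 at 2.95) were higher there by more than 1, as were 4.35% of all genes. Without library 7 the log2 fold changes of Adgre1 (-0.13), Csf1 (-0.026), Cd163 (-0.72) and Fcgr1 (-0.032) turned negative, and without p53-/- library 9 that of Cd163 was -1.04. The log2 fold change of Csf1r was 0.62 without library 7 and 2.24 without library 8, and that of Ly6c2 was 2.22 and 5.86. Without library 8 the quasi-likelihood test gave adjusted p-values of 0.0114 for Csf1r, 0.0184 for Csf1 and 0.0219 for Ly6c2, and called 5.99% of all genes. WT was then library 7 alone, which was low for all 3 genes and was assumed to vary as the p53-/- pair did.

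**Figure D3:**
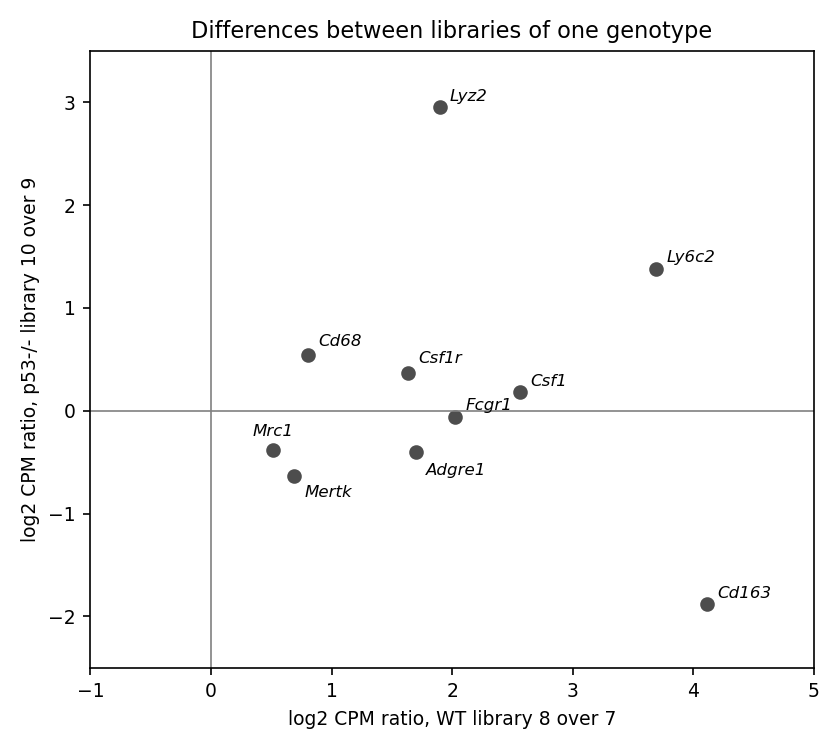
Log2 CPM ratio of WT library 8 over library 7 (x axis) against that of p53-/- library 10 over library 9 (y axis), 1 point per member. All 10 points lie right of 0 on the x axis, from 0.52 to 4.11, while they fall on both sides of 0 on the y axis, with Lyz2 the highest at 2.95.

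Markers of other cell types differed between the same libraries. The summed level of the 8 endothelial markers was 25.9 CPM in library 7 and 90.8 CPM in library 8, and that of 6 smooth muscle markers was 481 and 4495 CPM, against 71.2 and 90.6 CPM and 995 and 699 CPM in p53-/- SI. The median log2 difference of library 8 over library 7 was 1.60 for the members, 1.70 for the endothelial markers and 3.19 for the smooth muscle markers, and -0.58 for 8 epithelial markers. Library 10 held more of the B cell markers, whose summed level was 550 CPM against 26.5 CPM in library 9 and 2.17 and 3.05 CPM in WT. Cr2, a B cell and follicle gene, had 1, 0, 10 and 894 counts in libraries 7 to 10, and Gp2, a gene of the epithelium over lymphoid follicles, had 7, 5, 5 and 217 counts. Both were chosen after their values were seen. Between genotypes, the 5 tested adipocyte markers were all below WT in both p53-/- libraries (median log2 fold change -2.31), with 0 past the threshold of edgeR's quasi-likelihood test, 4 at an unadjusted p under 0.05 and 4 called lower by DESeq2. The 8 epithelial markers all had negative fold changes (median -0.46, or -0.15 without WT library 7 and -0.75 without WT library 8). Of them 6 did not overlap, 0 passed the threshold, 1 had an unadjusted p under 0.05 and DESeq2 called 1. Over all genes, 24.4% lay below WT in both p53-/- libraries. In either direction, 18.0% of all genes had an unadjusted p under 0.05 and DESeq2 called 9.16%. Library 10 also had 4.59% of its counts on the ribosomal RNA gene Rn18s-rs5, against 0.296% to 0.863% in the other 3. The part of these differences in the members' values was not tested.

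**Figure D4:**
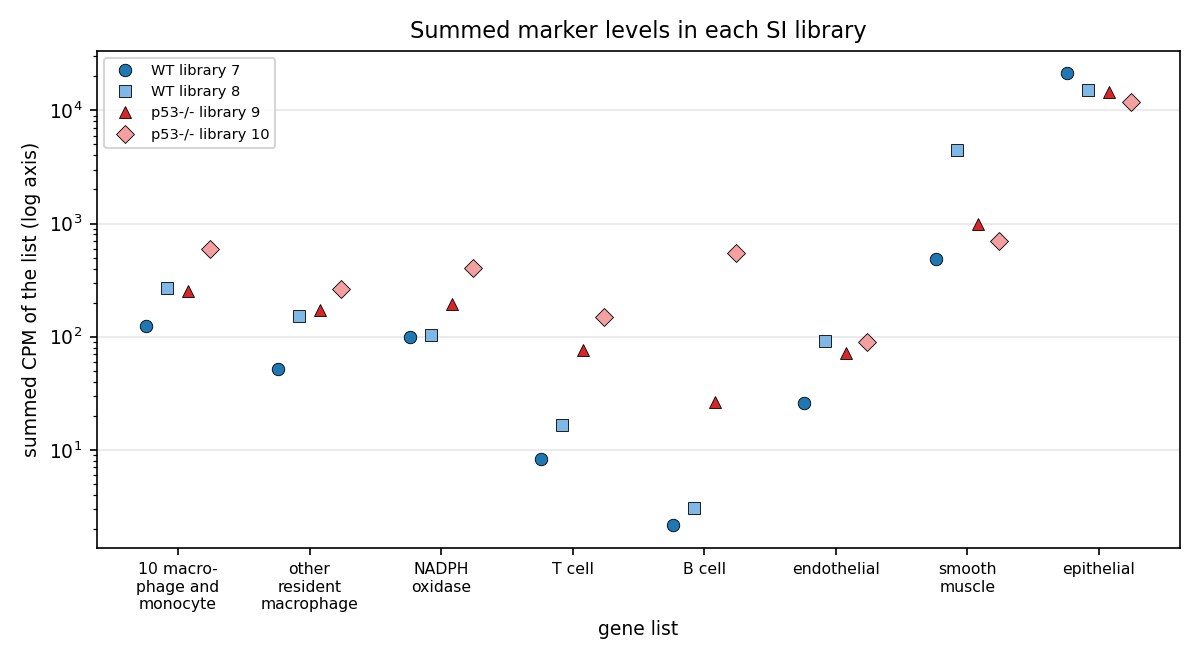
Summed CPM of the 10 members and of marker lists in each library, on a log axis. Library 7 is lowest for every list shown except the epithelial markers, where it is highest. Library 10 is highest for the members and for the resident macrophage, NADPH oxidase, T cell and B cell lists, with B cell markers at 550 CPM. Of the members' 598 CPM in library 10, Lyz2 alone makes up 411 CPM, and 5 of the 10 members are higher there than in library 9.

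Counts were next expressed per 100 Csf1r counts of the same library, which sets the members against each other in place of against all RNA. Csf1r itself was higher in both p53-/- libraries, so a gene at constant CPM would have a mean log2 difference of -1.42 on this scale. Mertk stood at 727 and 378 per 100 Csf1r counts in WT and at 185 and 92.4 in p53-/- SI. Both p53-/- values were below both WT values, with a mean log2 difference of -2.01. Hmgxb3, whose CPM hardly differed between genotypes, went from 263 and 68.9 in WT to 58.3 and 40.0 in p53-/- SI on the same scale. Ly6c2 stood at 1.56 and 6.50 in WT and at 12.6 and 25.6 in p53-/- SI, a mean log2 difference of 2.49. Adgre1 stood at 21.4 and 22.3 in WT and at 17.2 and 10.1 in p53-/- SI, and Fcgr1 at 8.33 and 10.9 against 8.09 and 6.04. Their mean log2 differences of -0.72 and -0.45 were smaller falls than that of a gene at constant CPM. The Adgre1 and Fcgr1 ratios were closer in the WT libraries than their CPM values were, as were those of Csf1, Cd163, Ly6c2 and Lyz2. Those of Cd68, Mrc1 and Mertk were not. Csf1r, the divisor, was itself higher in library 8 than in library 7 by 1.64 on the log2 scale. Cd68, Csf1, Mrc1, Cd163 and Lyz2 overlapped between genotypes. For the 4 ratios that did not overlap, an exact two-sided permutation test over the 4 libraries gave p = 0.333, or 0.75 adjusted over the 9 ratios. That p is the smallest value that 2 against 2 libraries can give. Hmgxb3 did not overlap on this scale either, and the share of all genes that did not was not computed, so the count of 4 has no background beside it.

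**Figure D5:**
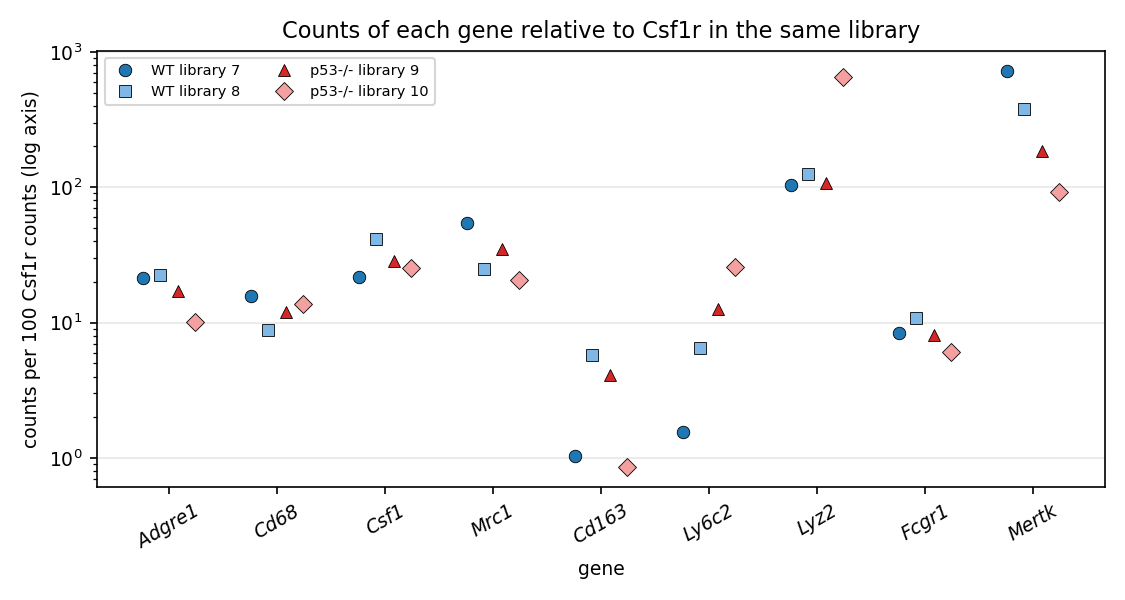
Counts of the other 9 members per 100 Csf1r counts of the same library, on a log axis. Mertk is lower in both p53-/- libraries (185 and 92.4) than in both WT libraries (727 and 378), and Ly6c2 is higher.

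To compare levels between genes, counts were divided by the exon length of the GENCODE M21 annotation, giving RPKM. Mertk and Lyz2 had the highest levels of the 10 members in every library. Mertk ranged from 13.5 RPKM in library 10 to 32.2 RPKM in library 8, and Lyz2 was at 9.41, 35.0, 40.4 and 312 RPKM in libraries 7 to 10, so Mertk led in library 7 alone. Csf1r ranked 3 in every library, at 2.06, 6.39, 8.54 and 11.0 RPKM. Ly6c2 ranked 9 in both WT libraries and 8 and 5 in the p53-/- libraries, at 0.0678, 0.876, 2.27 and 5.92 RPKM. Cd163 ranked 10 in every library, with at most 0.392 RPKM. Csf1, Adgre1, Mrc1 and Fcgr1 lay between 0.382 and 3.02 RPKM, and the ranges of these 4 overlapped. Cd68 was at 1.48 and 2.58 RPKM in WT and at 4.74 and 6.93 RPKM in p53-/- SI.

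The genes of the table whose 4 libraries were most like those of Csf1r were Pde4b, Vsir, P2ry13, Tyrobp and Rgs4, among 12811 genes compared. Their distances to Csf1r, taken over 4 centered log2 CPM values, ran from 0.0777 to 0.177. Pde4b, the nearest, was at 2.54 and 8.50 CPM in WT and at 10.7 and 14.6 CPM in p53-/- SI. Tyrobp, the signaling adaptor DAP12 of myeloid cells, lay at a distance of 0.176. It was at 2.35 and 7.66 CPM in WT and at 9.86 and 14.9 CPM in p53-/- SI. Which cells expressed these genes was not tested.

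Other genes of the lineage were counted from lists. Over all genes tested, 18.0% had an unadjusted p under 0.05 in edgeR's quasi-likelihood test and DESeq2 called 9.16%, in either direction. For 26.4% of all genes both p53-/- libraries lay above both WT libraries, and for 24.4% below both. Of 4 tested growth factors and receptors of myeloid cells, 0 passed the threshold of edgeR's quasi-likelihood test and 2 had an unadjusted p under 0.05, while DESeq2 called 0. Csf2rb, the shared beta chain of cytokine receptors, had a log2 fold change of 1.47 (adjusted p = 0.240), and Csf2ra, the GM-CSF receptor alpha chain, one of -0.0088. Of 9 lineage transcription factors, 0 passed, 4 had an unadjusted p under 0.05, and DESeq2 called 3 higher and 1 lower. Klf4 and Maf, the most abundant of them, had log2 fold changes of -0.74 and -0.43. Their mean levels in WT were 538 and 493 CPM, against 24.4 CPM for Csf1r, and which cells expressed them was not tested. Spi1 (chosen with its values known) encodes the myeloid regulator PU.1 and had 27 and 85 counts in WT and 247 and 543 counts in p53-/- SI, a log2 fold change of 2.40 (adjusted p = 0.186).

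Of 11 tested other monocyte genes, 9 had positive and 2 negative fold changes, with a median of 2.04. It was 1.24 without p53-/- library 10 and 1.35 without WT library 7, the latter over 12 genes because the filter was applied anew. Both p53-/- libraries were above both WT libraries for 8 of the 11, as for 26.4% of all genes. None passed the threshold in edgeR's quasi-likelihood test, 5 had an unadjusted p under 0.05, and DESeq2 called 3. The most abundant, Plac8 and Ace, are also known in other cell types and had log2 fold changes of 0.55 (adjusted p = 0.331) and -0.024. Ccr2, the chemokine receptor that monocytes need to leave the marrow, was also chosen with its values known and had 2, 12, 63 and 62 counts in libraries 7 to 10. Of 12 tested other genes of resident macrophages, 11 had positive fold changes, with a median of 1.25. It was 0.61 without WT library 7 and 2.45 without WT library 8, each over the 13 genes that then passed the filter. There too 0 passed, 4 had an unadjusted p under 0.05, and DESeq2 called 1. C1qa and C1qb, subunits of complement C1q made by macrophages, had log2 fold changes of 1.17 each (adjusted p = 0.384 and 0.308). C1qa was at 12.1 and 42.6 CPM in WT and at 45.9 and 77.3 CPM in p53-/- SI, so library 7 was low here as well.

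The 6 subunits of the phagocyte NADPH oxidase had positive fold changes, with a median of 2.37 that was 1.25 without p53-/- library 10. Both p53-/- libraries were above both WT libraries for all 6, as for 26.4% of all genes. In edgeR's quasi-likelihood test 0 passed and 6 had an unadjusted p under 0.05, while DESeq2 called 6. Over all genes, 18.0% had such an unadjusted p and DESeq2 called 9.16%, in either direction. Cyba was at 75.7 and 61.8 CPM in WT and at 112 and 154 CPM in p53-/- SI, and Rac2, also abundant in lymphocytes, at 6.50 and 9.21 against 24.6 and 108 CPM. The summed level of the 6 genes, most of it Cyba in WT, was 98.3 and 102 CPM in WT and 195 and 404 CPM in p53-/- SI. Cybb, the catalytic subunit, was chosen with its values known and had 56 and 169 counts in WT, so library 7 was the lower one there too, against 524 and 1078 in p53-/- SI. Of 6 genes for Fc gamma receptors and their signaling partners, 5 had positive fold changes (median 1.16, or 0.66 without WT library 7 and 1.89 without WT library 8). Among them 0 passed, 1 had an unadjusted p under 0.05 and DESeq2 called 1. Fcer1g, the shared signaling chain, had a log2 fold change of 1.70 (adjusted p = 0.171), and Syk, a kinase downstream of it, one of -0.26.

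Of 14 other genes for the uptake of dying cells, 9 had positive and 5 negative fold changes, with a median of 0.26 that was -0.15 without WT library 7, 0.81 without WT library 8 and 0.48 without p53-/- library 9. In edgeR's quasi-likelihood test 0 passed and 4 had an unadjusted p under 0.05, and DESeq2 called 1 higher and 1 lower (Gas6). Lrp1, a large scavenger receptor, had a log2 fold change of -0.22. Of 13 lysosomal genes, 10 had negative fold changes (median -0.38, or -0.13 without WT library 7), 0 passed and 5 had an unadjusted p under 0.05, while DESeq2 called 4 lower. Lamp1, a lysosomal membrane protein, was at 951 and 749 CPM in WT and at 540 and 547 CPM in p53-/- SI (log2 difference -0.64, adjusted p = 0.248), and the protease Ctsb had a log2 fold change of 0.072. Many of these genes, though not all, are expressed by most cell types. Laptm5, chosen with its values known, had the highest log2 fold change of the list, at 2.93 (adjusted p = 0.163 in edgeR's quasi-likelihood test). It was at 7.12 and 19.7 CPM in WT and at 41.0 and 164 CPM in p53-/- SI.

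Of 6 tested classical activation genes, 5 had positive fold changes (median 2.09). None passed in edgeR's quasi-likelihood test, 5 had an unadjusted p under 0.05 and DESeq2 called 3. Nos2, the inducible nitric oxide synthase, was at 171 and 189 CPM in WT and at 609 and 373 CPM in p53-/- SI. Its log2 fold change was 1.45, and that of Tnf, with 41 and 25 counts against 178 and 266, was 2.33. Each had an adjusted p of 0.106 in edgeR's quasi-likelihood test. Csf1r was at 11.9 to 63.4 CPM in the same libraries, and which cells expressed Nos2 was not tested. Of 4 tested alternative activation genes, 3 had positive fold changes (median 0.79), 0 passed, 1 had an unadjusted p under 0.05 and DESeq2 called 1. Without WT library 7 or 8 the median was 1.34 or 1.37. Each was taken over 5 genes, because the filter was applied anew, so the gene sets differ. Tgm2, a transglutaminase also found in many other cells, was at 116 and 119 CPM in WT and at 369 and 231 CPM in p53-/- SI. Il4ra, the receptor chain for IL-4 and IL-13, had a log2 fold change of 0.23.

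Markers of other leukocytes also differed between the libraries. The 10 T cell markers were all at higher CPM in both p53-/- libraries, with summed levels of 8.29 and 16.7 CPM in WT and 76.8 and 151 CPM in p53-/- SI, and the 9 dendritic cell markers likewise, with 3.47 and 14.6 against 31.8 and 57.9 CPM. Of the 9 dendritic cell markers, 8 had enough counts to be tested. Of the neutrophil markers 3 of 12 had enough counts to be tested, and Ngp and Elane were at 0 in every library. The summed level of the neutrophil markers was 4.33 and 7.66 CPM in WT and 9.34 and 11.3 CPM in p53-/- SI. Of the mast cell markers 2 of 8 were tested, and Fcer1a was at 0 in every library. In edgeR's quasi-likelihood test 0 markers of these lists or of the B cell list passed. At an unadjusted p under 0.05 there were 10 T cell, 5 dendritic cell, 8 B cell, 1 neutrophil and 1 mast cell markers, and DESeq2 called 10, 2, 6, 0 and 1. Over all genes, 18.0% had such an unadjusted p and DESeq2 called 9.16%, in either direction. Of all genes, 26.4% lay above WT in both p53-/- libraries. The neutrophil and mast cell markers did not all have the same direction. The part of these cell types in the members' values was not tested.

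The promoters of the members were searched for the letters GAGGAA on both strands, a core of the sites that PU.1 and related ETS factors bind. RefSeq promoters (GRCm38.p6, 250 bases before the start) were matched for 8 members, without Adgre1 and Csf1r. The letters were found in 4 of them, Cd68, Mrc1, Ly6c2 and Fcgr1, against 31.3% of 27025 genes. The longer form GAGGAAGT, which holds the shorter one, was found in 1 of 8 (Ly6c2) against 3.69% of all genes. The Ly6c2 and Cd68 promoters are shown, since these are the members with the match whose fold changes were the largest. They lie at chr15:75111972-75112221 and chr11:69666171-69666420, both on the minus strand, with the letters found in capitals. For Ly6c2 the table holds a second window, at chr15:75111938-75112187, that overlaps the one shown and holds the letters at 2 places.
Ly6c2: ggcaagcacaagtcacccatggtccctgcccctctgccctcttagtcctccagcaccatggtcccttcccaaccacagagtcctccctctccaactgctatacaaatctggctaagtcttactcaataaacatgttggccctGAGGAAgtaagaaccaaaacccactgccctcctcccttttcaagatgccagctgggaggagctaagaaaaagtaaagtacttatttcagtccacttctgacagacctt
Cd68: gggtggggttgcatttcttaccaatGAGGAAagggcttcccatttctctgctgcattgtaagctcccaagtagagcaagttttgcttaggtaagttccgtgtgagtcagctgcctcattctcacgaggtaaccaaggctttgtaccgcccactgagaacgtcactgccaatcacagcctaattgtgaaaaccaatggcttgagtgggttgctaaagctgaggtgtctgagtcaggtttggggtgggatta

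The genotype labels were checked with Trp53, which was at 57.7 and 47.1 CPM in WT and at 19.8 and 22.5 CPM in p53-/- SI (log2 difference -1.31, adjusted p = 0.0602). All 7 direct p53 target genes had negative fold changes, and 4 passed the threshold (Bax at -2.18, Ccng1 at -3.32, Phlda3 at -5.68 and Eda2r at -7.59). Library totals ran from 15005479 to 22173164 counts. Within a genotype, counts differed beyond counting error (chi-square divided by its degrees of freedom 48.0 for WT and 69.5 for p53-/- SI).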

How the data were processed

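SI of WT and p53-/- mice was sequenced post-TBI, with 2 libraries per genotype. The authors deposited raw read counts per gene, without normalization, for 56748 genes. The submitters' processing notes name fastp, HISAT2 2.0.5, featureCounts 1.5.0-p3 and DESeq2 1.20.0, without their roles. The genome build, annotation and strand setting are not given in the sources used here, so overlapping genes and close paralogs could have shared or lost reads. Columns name the genotype but not the replicate number, and 0 columns were left unused.

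Counts were scaled by TMM and filtered by filterByExpr, and 16094 genes were tested with edgeR 4.0.16 (glmQLFit, glmQLFTest, two-sided, R 4.3.3) with Benjamini-Hochberg adjustment at 0.05. Intervals (95%) used the fit's degrees of freedom, and a floor of 3 counts, which covers counting error only, was 0.131 to 0.195 CPM. Totals of 15005479 to 22173164 counts gave the 10 members 2026 to 12014 counts per library. DESeq2 1.42.0, edgeR's likelihood ratio test, RLE, upper-quartile and library-size scaling, other filters, summed paralogs, omission of antigen receptor segments and omission of each library were tried. Omission of the ribosomal RNA gene was added after the data were seen. On simulated data 200 of 16094 genes were changed between p53-/- and WT. The quasi-likelihood test recovered 1, 158 and 194 at log2 changes of 1, 2 and 3, with 0, 17 and 41 false calls. DESeq2 recovered 62, 183 and 199, with 36, 71 and 76 false calls. The changed genes were drawn above a minimum mean CPM that Cd68, Cd163 and Fcgr1 did not reach, and each gene varied independently. Recovery of genes below that level, or of genes that move together, was not simulated. Exon lengths and transcripts came from GENCODE M21 (GRCm38), which held 99.0% of the tested gene identifiers.

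The members and lists were chosen with earlier results of these data known. Named genes are the members, Trp53, Lyz1, Ly6c1, each list's genes past the threshold and its 2 most abundant tested genes, other cell types' markers past the threshold or at 0 throughout, and the 5 genes nearest to Csf1r. Genes outside this rule (Spi1, Ccr2, Cybb, Laptm5, Hmgxb3, Rn18s-rs5, Cr2 and Gp2) were chosen after their values or sequences were seen.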

Additional observations from a re-analysis of the deposited data

How the results depend on the processing

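The members' median log2 fold change stayed positive under all 14 alternatives, from 0.30 without WT replicate 7 to 2.10 without WT replicate 8, and was 0.79 without p53-/- replicate 9 and 0.88 without p53-/- replicate 10. Of 138 fold changes of single members under the alternatives, 124 kept their direction and side of the threshold, 9 newly passed it and 5 reversed. The reversals were Adgre1 (-0.13), Csf1 (-0.026), Cd163 (-0.72) and Fcgr1 (-0.032) without WT replicate 7, and Cd163 (-1.04) without p53-/- replicate 9. The same 4 genes stood at 1.55, 2.52, 3.31 and 1.97 without WT replicate 8. The number of members past the threshold was 0 in the reported test, 1 with DESeq2, 1 with the likelihood ratio test and 4 with no filter, and 0 to 3 when 1 library was left out. Genes higher and lower over the whole table were 48 and 31 in the reported test, 26 and 20 with unscaled library sizes, 29 and 20 after upper-quartile scaling, 812 and 663 with DESeq2, 833 and 462 with the likelihood ratio test, 1433 and 761 with no filter, and 24 and 18 with at least 10 counts in every library. Leaving out 1 library gave 0 to 680 higher and 0 to 344 lower genes. The count of 0 came without p53-/- replicate 10, where 767 higher and 434 lower genes had an unadjusted p under 0.05 in edgeR's quasi-likelihood test. With no filter the median log2 fold change of all genes moved from -0.0084 to 0.15. The prior degrees of freedom of that fit were infinite, against 3.45 in the reported test. Each gene was thus given the spread of the trend over all genes in place of its own. The 4 members and the 1433 and 761 genes called with no filter carry this limit. The log2 fold change of Trp53 passed the threshold with DESeq2 (-1.32), the likelihood ratio test (-1.31) and no filter (-1.26), and lay between -1.45 and -1.15 when 1 library was left out. It also passed without WT replicate 7 (adjusted p = 0.0473) and without WT replicate 8 (0.0199), but not without p53-/- replicate 9 (0.196) or 10 (0.417), all in edgeR's quasi-likelihood test. The causes were not tested. No paired analysis was possible because the columns carry the genotype but none of the replicate numbers of the labels. Cd163, Ly6c2 and Fcgr1 had 2, 3 and 16 counts in WT library 7, so their fold changes rested on few counts there, although library 7 was deeper than library 8.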
